A study of Homo sapiens with 7 samples.

Results

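CTCF peaks at the starts of long non-coding RNA (lncRNA) genes were examined in K562 cells, an established human leukaemia line. A peak was taken when its centre lay at most 1 kb from the start of an annotated lncRNA gene and more than 1 kb from every protein-coding gene start on chromosomes 1 to 22 and X. This gave 1131 of 33069 peaks in the list of control cells and 1205 of 32893 peaks in the list of cells treated with pyridostatin (PDS). The study comprised 7 samples: untreated control cells gave 2 CTCF samples and 1 IgG sample, and cells exposed to 10 μM PDS for 24 h gave 2 of either kind. CTCF-bound DNA was recovered by immunoprecipitation and sequenced, nonspecific IgG served as the negative control, and the labels tie the CTCF and IgG samples of a condition to 1 peak list. Each condition is therefore described by a single list without replicate values, the sequencing depth behind a peak is unknown, and no test between the conditions is possible. The 95% intervals given with shares reflect counting error alone, since peaks do not replicate a condition. The fold of a peak is its enrichment as the peak caller gave it, and the IgG samples it is relative to are not given in the sources used here. Peaks were therefore ranked within a list, and folds were not compared in level between lists.

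CTCF is a zinc finger protein that binds a long sequence motif, often in unmethylated DNA, and together with cohesin it anchors chromatin loops and bounds domains. LncRNA genes are transcribed by RNA polymerase II from their own promoters or from the opposite side of coding promoters, and several of them host small nucleolar RNAs or microRNAs in their introns. A G-quadruplex (G4) is a four-stranded fold of guanine-rich DNA that is common at CpG-rich promoters, and PDS is a small molecule that binds and stabilises it. The study addressed how G4s and CpG-rich DNA relate to CTCF binding, and the comparison of the lists bears on CTCF peaks with and without G4 stabilisation.

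The sequences below show what CTCF peaks at lncRNA starts looked like. In the first set, capitals mark a match to the 15-base CTCF consensus derived from ChIP-exo, printed on the strand of the match, for the 4 shared peaks with the highest control folds that hold one. They lie at chr1:47644964-47645018 (plus strand, 48 bp upstream of the CYP4A22-AS1 start), chr9:130880080-130880134 (minus strand, 865 bp downstream of the SLC25A25-AS1 start), chr2:3698755-3698809 (minus strand, 891 bp downstream of the ENSG00000289136 start) and chr1:248100314-248100368 (plus strand, 103 bp upstream of the ENSG00000289367 start) of GRCh37 (hg19).
CYP4A22-AS1: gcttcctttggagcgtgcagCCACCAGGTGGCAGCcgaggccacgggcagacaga
SLC25A25-AS1: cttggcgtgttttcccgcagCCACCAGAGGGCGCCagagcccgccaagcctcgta
ENSG00000289136: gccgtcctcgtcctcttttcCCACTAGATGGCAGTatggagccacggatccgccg
ENSG00000289367: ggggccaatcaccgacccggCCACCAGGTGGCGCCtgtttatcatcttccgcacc

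In the second set, capitals mark a G4 motif, defined by 4 runs of 3 or more G, separated by 1 to 7 nt and searched on both strands, for the 2 shared peaks with the highest control folds that overlap one. They lie at chr13:113260752-113260808 (minus strand, 49 bp upstream of the ENSG00000277159 start) and chr11:66176171-66176227 (plus strand, 430 bp upstream of the ENSG00000254510 start).
ENSG00000277159: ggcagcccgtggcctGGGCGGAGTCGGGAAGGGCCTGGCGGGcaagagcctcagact
ENSG00000254510: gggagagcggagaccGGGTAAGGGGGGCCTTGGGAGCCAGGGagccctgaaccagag

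The third set holds the strongest consensus-bearing peak found in 1 list only, for each list, with the consensus in capitals. The control peak lies at chr17:15732196-15732250 (plus strand, 575 bp upstream of the ENSG00000290377 start) and the PDS peak at chr12:48212008-48212062 (plus strand, 286 bp upstream of the ENSG00000274737 start). The window at ENSG00000290377 has 1 near-identical copy elsewhere in the genome, so its peak is uncertain.
ENSG00000290377: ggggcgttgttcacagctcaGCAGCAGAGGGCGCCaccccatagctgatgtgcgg
ENSG00000274737: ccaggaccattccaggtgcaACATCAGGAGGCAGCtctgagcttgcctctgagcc

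The last sequence is the stretch shared by the control and PDS peaks at the EPB41L4A-AS1 start, chr5:111496351-111496600 (plus strand, the strand of the lncRNA). It was chosen after its values were seen, because it has the highest fold of the whole PDS list. It holds no consensus match, and the capitals mark the stretch nearest to the consensus, which departs from it at 2 positions.
EPB41L4A-AS1: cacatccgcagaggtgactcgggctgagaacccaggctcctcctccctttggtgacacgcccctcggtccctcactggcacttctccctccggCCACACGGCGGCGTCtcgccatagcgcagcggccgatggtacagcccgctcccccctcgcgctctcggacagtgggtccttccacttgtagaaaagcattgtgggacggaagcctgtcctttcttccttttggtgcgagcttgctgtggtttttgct

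Few lncRNA starts carried a CTCF peak. Of the 18592 annotated lncRNA genes, 1143 (6.15%, Wilson interval 5.81 to 6.50%) had such a peak in control cells and 1121 (6.03%, 5.70 to 6.38%) in PDS-treated cells. In both lists the peak was present at 984 starts, and in at least 1 list at 1280 starts. Among the 15936 lncRNA starts more than 1 kb from a coding start, the share was 6.85% (6.46 to 7.25%) in control and 6.68% (6.31 to 7.08%) in PDS-treated cells. With a peak of any kind counted, the share of these starts was 7.13% (6.75 to 7.54%) and 6.93% (6.55 to 7.34%). The corresponding share of protein-coding starts with a peak of any kind was 21.0% (20.4 to 21.5%) and 19.7% (19.2 to 20.3%). LncRNA starts within 1 kb of a coding start had a peak of any kind in 26% (24.4 to 27.7%) and 23.5% (21.9 to 25.1%). Most of these peaks lay too close to the coding start to be counted here, and 52 and 56 of these 2656 starts had a counted peak. The shares at lncRNA starts away from coding starts were thus below both of these in either list.

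Most of the genes behind these peaks have no symbol, as is the case for 11456 of the 15936 lncRNA starts more than 1 kb from a coding start. The 1131 control peaks were nearest to 1084 lncRNA genes, 44 of which had 2 or more peaks, and the 1205 PDS peaks were nearest to 1072 genes, 125 of which had 2 or more. Of the control peaks, 723 belonged to genes known by an Ensembl identifier alone, 155 to genes with an antisense name, 151 to genes with a LINC name and 20 to host genes of small RNAs. Relative to the number of starts of each kind more than 1 kb from a coding start, host genes led with 21 of 94 in control cells (22.3%, 15.1 to 31.8%). Genes named as divergent transcripts followed with 13 of 66 (19.7%, 11.9 to 30.8%) and antisense genes with 139 of 1375 (10.1%, 8.63 to 11.8%). The shares were 6.93% (5.94 to 8.08%) for LINC genes and 6.15% (5.72 to 6.60%) for genes without a symbol. Host genes and divergent transcripts could not be told apart by their intervals, whereas both lay above LINC genes and genes without a symbol. The PDS list gave similar shares, with 21.3% (14.2 to 30.6%) of host genes, 21.2% (13.1 to 32.5%) of divergent transcripts, 9.24% (7.82 to 10.9%) of antisense genes, 6.43% (5.47 to 7.54%) of LINC genes and 6.12% (5.69 to 6.57%) of genes without a symbol. By chromosome, the share of such starts with a peak ran from 3.33% on chromosome 4 to 9.72% on chromosome 11 in control cells, and from 2.93% on chromosome 4 to 10.1% on chromosome 11 after PDS.

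Peak centres gathered at the lncRNA start but less tightly than at coding starts. In control cells 408 of the 1131 peaks (36.1%, 33.3 to 38.9%) were centred within 200 bp of the start, against 42.9% (41.4 to 44.5%) of the 3999 peaks at coding starts. After PDS the shares were 32.7% (30.1 to 35.4%) and 39.0% (37.5 to 40.6%). The median distance was 326.5 bp (quartiles 128 and 646 bp) in control cells and 349.5 bp (146.5 and 659.5 bp) in PDS-treated cells, compared with 255.5 and 275.5 bp at coding starts. Centres lay upstream of the lncRNA start in 53.8% (50.9 to 56.7%) of control peaks and 52.3% (49.5 to 55.1%) of PDS peaks. A further 304 control peaks (26.9%) were centred in an exon of the lncRNA gene and 196 (17.3%) in an intron, and 332 (27.6%) and 226 (18.8%) of the PDS peaks. With respect to protein-coding genes, 678 control peaks (59.9%, 57.1 to 62.8%) lay outside them, 313 (27.7%) in an intron and 140 (12.4%) in an exon. Over the whole control list, 44.9% of peaks lay outside coding genes, 42.9% in introns and 12.2% in exons.

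**Figure D1:**
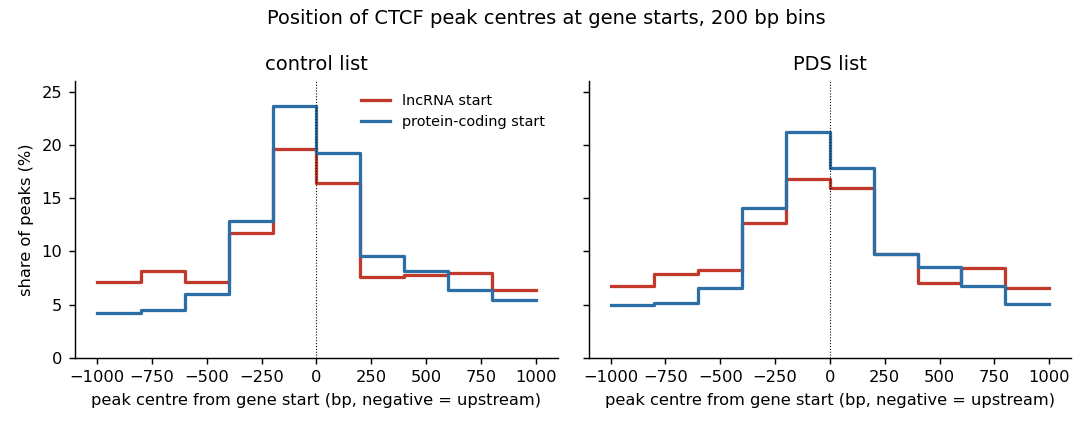
Share of CTCF peaks (%) by the position of the peak centre relative to the gene start (bp, 200 bp bins, negative values upstream) for peaks at lncRNA starts (red) and at protein-coding starts (blue) in each list. In control cells 19.6% of the peaks at lncRNA starts fall in the 200 bp before the start and 16.4% in the 200 bp after it, against 23.7% and 19.3% at coding starts, and the bins beyond 400 bp hold between 6.37% and 8.13% at lncRNA starts.

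The 2 peaks just inside the limit in control cells were centred 998.5 bp from the starts of ENSG00000277214 and ENSG00000290017, with folds of 18.9 and 26.7. The 2 just outside it, at ATP6V1B1-AS1 and ENSG00000288840, were centred 1000.5 and 1005.5 bp away, with folds of 12 and 18.3. In the PDS list the peaks just inside, at ENSG00000262766 and VSIG10L-AS1, had folds of 11.8 and 9.14, and those just outside, at ENSG00000288844 and TMEM191A, had folds of 23.2 and 3.46. The control folds just outside the limit were thus the lower ones, whereas in the PDS list they were the highest and the lowest of the 4.

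By fold, peaks at lncRNA starts ranked above the rest of the control list and near the middle of the PDS list. Their median fold was 31.1 (quartiles 20.9 and 44.7) in the control list and 17.0 (11.6 and 23.2) in the PDS list. As a percentile within the list, the median was 62.8 (31.5 and 84.1) in control cells, compared with 59.0 at coding starts and 48.5 at peaks elsewhere. In PDS-treated cells it was 51.6 (20.7 and 77.4), compared with 39.8 at coding starts and 51.0 elsewhere. Ranked by the p-value of the peak caller instead, the median percentile in control cells was 59.9, compared with 59.8 at coding starts and 48.5 elsewhere. In PDS-treated cells it was 59.0, compared with 66.9 at coding starts and 47.8 elsewhere, so that peaks at lncRNA starts stood above coding-start peaks by fold and below them by p-value. Within the top 10% of the list by fold were 178 of the 1131 control peaks (15.7%, 13.7 to 18.0%) and 157 of the 1205 PDS peaks (13.0%, 11.2 to 15%), compared with 18.6% (17.4 to 19.8%) and 11.2% (10.2 to 12.2%) of coding-start peaks. In the top 1% were 24 control peaks (2.12%, 1.43 to 3.14%) and 8 PDS peaks (0.664%, 0.337 to 1.30%), and the corresponding shares of coding-start peaks were 2.95% (2.47 to 3.52%) and 2.25% (1.82 to 2.77%). The median width was 360 bp in control and 350 bp in PDS-treated cells, close to the 360 and 350 bp of coding-start peaks.

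The 10 peaks of highest fold in the control list each had an overlapping peak in the PDS list. The strongest lay upstream of ENSG00000277159 at chr13:113260681-113260980, with a fold of 163 (rank 17 of the control list), and its PDS counterpart had a fold of 45.9 (rank 430). At ENSG00000260498, chr16:87812701-87813000, the fold was 136 (rank 51) in control and 45.3 (rank 456) in PDS-treated cells, within an exon of the lncRNA. The G4-bearing peak upstream of ENSG00000254510, chr11:66175861-66176520, had a control fold of 132 (rank 60) and a PDS fold of 32.3 (rank 2229). These 3 peaks thus held a high place in both lists. The consensus-bearing peak at CYP4A22-AS1, an antisense transcript next to a cytochrome P450 gene, lay at chr1:47644801-47645220 with a control fold of 130 (rank 64) and a PDS fold of 36.4 (rank 1357). That at SLC25A25-AS1, antisense to a mitochondrial carrier gene, lay at chr9:130879801-130880520 with folds of 116 (rank 121) and 57.9 (rank 117). The remaining consensus-bearing peak among the 10, at ENSG00000289136, chr2:3698581-3698880, had folds of 112 (rank 145) and 62.0 (rank 83). Of the remaining genes, ENSG00000266313 went by fold from rank 123 to rank 4379, the largest fall in rank among the 10. LINC02427 went from rank 142 to rank 1690. At ENSG00000266313 the p-value of the peak caller was nonetheless smaller after PDS (9.61e-17 in control and 3.01e-42 after PDS). So it was at LINC02427 (5.41e-12 and 1.02e-16), CYP4A22-AS1 (4.85e-18 and 1.48e-39) and ENSG00000254510 (2.51e-17 and 1.90e-28). Among the 10, only EPB41L4A-AS1 (7.01e-23 and 1.59e-15) and ENSG00000289136 (3.45e-17 and 6.76e-17) had a larger p-value after PDS. The 10 were chosen for a high control fold, which by itself favours a fall in rank. CCDC144BP, a pseudogene annotated as lncRNA, ranked 53 and 135, but its control window has a copy elsewhere in the genome and its peak is uncertain.

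The highest fold of the PDS list belonged to EPB41L4A-AS1, an lncRNA gene that hosts a small nucleolar RNA. Its PDS peak, chr5:111496351-111496600, had a fold of 153 (rank 1 of 32893), and the overlapping control peak, chr5:111496321-111496620, had a fold of 134 (rank 55). Both were centred in the lncRNA about 250 bp downstream of the start, at 252.5 and 247.5 bp, and neither held a consensus within 1 mismatch or a G4 motif. ENSG00000240980, chr2:9282651-9283250, followed with a PDS fold of 90.8 (rank 12) and a control fold of 97.8 (rank 283). LINC00680 ranked 16 and 189 but has a copy elsewhere, so its peak is uncertain. Of the other PDS peaks among the strongest 10, LINC02585 rose by fold from control rank 3347 to PDS rank 161 and ENSG00000289046 from 1030 to 195. EPC1-AS2 rose from 9916 to 369 and ENSG00000288885 from 11152 to 342. The last 3 peaks each overlapped a G4 motif in the PDS list, and ENSG00000288885 covered 2. The p-value of the peak caller was larger after PDS at EPC1-AS2 (3.24e-39 in control and 4.68e-30 after PDS). The same held at ENSG00000288885 (1.86e-21 and 1.11e-14) and LINC02585 (1.38e-20 and 2.58e-19), whereas it was smaller at ENSG00000289046 (1.35e-23 and 8.29e-25). All of these peaks were chosen for a high PDS fold, which by itself favours a rise in rank from the control list. Among the 10 strongest, 3 control peaks held the consensus and 2 a G4 motif, and 2 and 4 of the PDS peaks. Near-identical copies were found for 4 of the 50 strongest peaks of either list, but for 9 of the 1131 control peaks (0.796%) and 10 of the 1205 PDS peaks (0.830%) in all.

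By p-value the leading gene was another. A broad peak over the start of PPM1F-AS1, antisense to a protein phosphatase gene, had the smallest p-value of the whole PDS list, 2.46e-115, at chr22:22292151-22293300 with a fold of 23 (rank 7647 by fold). In the control list the overlapping peak, chr22:22292101-22294680, spanned 2580 bp and held rank 3 by p-value with 1.05e-77 and a fold of 39.5 (rank 7211). It was singled out after its values were seen. At ENSG00000290026, chr11:65341501-65342000, the p-value ranked 20 in the PDS list with a fold of 16.5 (rank 16870), whereas the control peak had a fold of 103 (rank 220). It was also singled out after its values were seen. ENSG00000261842, next by p-value in the control list (rank 29), stood high by fold as well, with rank 1280 in the control list and rank 433 in the PDS list. Ranks by fold and by p-value thus differed widely at some of these starts and not at others.

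Of 71 listed lncRNA genes of known function whose starts lay more than 1 kb from a coding start, 13 (18.3%, 11.0 to 28.8%) had such a peak in control and 14 (19.7%, 12.1 to 30.4%) in PDS-treated cells, against 6.85% and 6.68% of all such starts. Small RNA host genes made up 8 of the 13 and 7 of the 14. Of 28 host genes, all annotated and 22 of them more than 1 kb from a coding start, 8 had a peak nearest to their start in control cells and 7 in PDS-treated cells. Of 7 X-linked lncRNA genes, which include those of the X inactivation centre and FIRRE far from it, 1 had a peak in control cells, FIRRE, and 2 had one in PDS-treated cells, FIRRE and FTX. Of 13 abundant or nuclear lncRNAs, 11 of which were found under their name, 3 had a peak in either list, and of 16 genes linked to blood and leukaemia, 12 of which were found, 1 had. Of 18 genes of the HOX clusters, 11 lay more than 1 kb from a coding start, and of these none had one in control cells and 1 had one after PDS. HOXC-AS3, whose start lies 326 bp from a coding start and which was singled out after its values were seen, had a shared peak 582.5 bp downstream that is not counted, with a control fold of 132 (percentile 99.8) and a PDS fold of 17.6 (percentile 54.8). Of 14 genes of imprinted domains, 13 were found and none had a peak within 1 kb in either list. The nearest peak to the start of H19, the maternally expressed lncRNA of the imprinted IGF2 domain, was centred 1921.5 bp downstream in control and 1531.5 bp downstream in PDS-treated cells. At GNAS-AS1, the antisense transcript of the imprinted GNAS locus, it was centred 1932.5 and 1917.5 bp upstream. The lists were put together with earlier results of these data known, and their counts are a description.

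Among host genes, EPB41L4A-AS1 had the highest control fold, given above. SNHG17, a small nucleolar RNA host, had a peak over its start at chr20:37063861-37064280 with a fold of 53.5 (rank 3132) in control and 36.4 (rank 1351) in PDS-treated cells. MIR193BHG, a microRNA host, had a peak 375.5 bp upstream at chr16:14394721-14395020 with folds of 48.3 (rank 4299) and 38.8 (rank 995). SNHG7 had a peak 154.5 bp upstream at chr9:139622521-139623060 with folds of 27.3 (rank 15841) and 21.4 (rank 9381). By fold, all 3 thus moved up after PDS relative to the other peaks of their list. The p-value of the peak caller was smaller after PDS at MIR193BHG (2.89e-11 in control and 2.68e-12 after PDS). It was larger at SNHG17 (6.88e-34 and 2.67e-33) and SNHG7 (6.26e-32 and 1.45e-28). At SNHG16 the stronger of its peaks, with folds of 58.7 (rank 2319) and 31.8 (rank 2397), was closer to the start of the opposite gene ENSG00000267546 and is counted there. MIR17HG, the host of an oncogenic microRNA cluster, had a weak peak within 1 kb in the control list alone, with a fold of 9.35 (rank 30829). The nearest PDS peak was centred 1135.5 bp downstream of its start, outside the limit, and overlapped a control peak. FIRRE, an X-linked lncRNA whose locus binds CTCF on the inactive X, had a peak over its start at chrX:130964761-130965180 with a fold of 45.3 (rank 5086) in control and 42.7 (rank 626) in PDS-treated cells. FTX, a regulator of X inactivation, had a 100 bp peak in the PDS list alone, with a fold of 16.1 (rank 17651), and HOXB-AS1, within the HOXB cluster, one with a fold of 12.1 (rank 25410).

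Among the abundant and nuclear lncRNAs, MIAT, a nuclear lncRNA, carried a strong peak with the consensus and a G4 motif, 914.5 bp upstream at chr22:27041281-27041640, with folds of 85.7 (rank 519) in control and 36.8 (rank 1279) in PDS-treated cells. NEAT1, the scaffold of paraspeckles, carried a weak one at chr11:65189701-65190000, with folds of 9.36 (rank 30823) and 5.94 (rank 32374), and CRNDE one with folds of 19.5 (rank 23796) and 10.1 (rank 28135). DLEU1, from the region deleted in lymphocytic leukaemia, had folds of 7.50 (rank 32059) and 6.02 (rank 32338). By fold, all 4 moved down after PDS relative to the other peaks of their list. The p-value of the peak caller was smaller after PDS at MIAT (5.26e-13 in control and 8.99e-15 after PDS) and CRNDE (5.74e-07 and 4.94e-08). It was larger at NEAT1 (8.63e-07 and 5.11e-06) and DLEU1 (6.56e-08 and 9.92e-08).

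**Figure D2:**
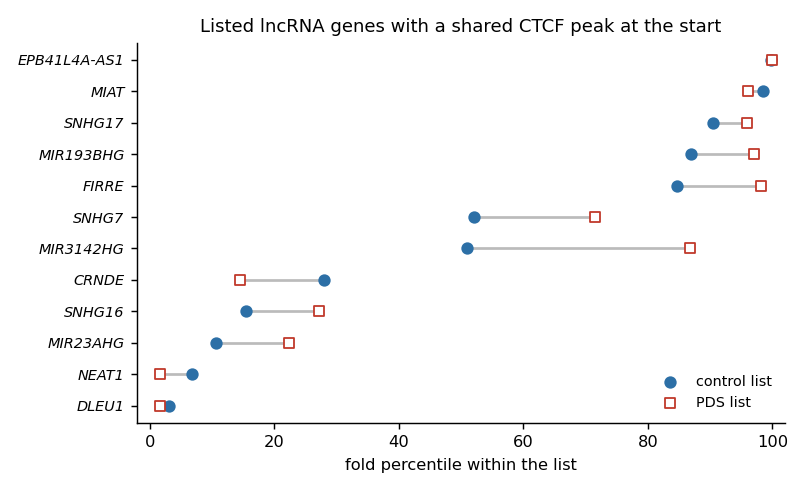
Fold percentile within the control list (filled circles) and the PDS list (open squares) for the 12 listed lncRNA genes with a control peak at the start that overlaps a PDS peak; 100 is the highest fold of a list. FIRRE lies at 84.6 and 98.1, MIR3142HG at 50.9 and 86.8, and NEAT1 at 6.79 and 1.58.

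Several lncRNA starts carried more than 1 peak. ENSG00000228703 had 1 control peak, chr1:110172961-110173200, with a fold of 77.0 (rank 814), and 4 separate PDS peaks with folds between 7.14 and 14.2, 3 of which had no counterpart. ARNILA had a control peak at chr2:25599241-25600020 with a fold of 66.3 and a wider PDS peak over it with a fold of 22.8, next to 2 narrower PDS peaks closer to the start that had no counterpart. At DGAT2-DT, the divergent transcript of a triglyceride synthesis gene, both lists had 2 peaks. The one upstream held rank 4470 by fold in the control list (fold 47.6) and rank 31548 in the PDS list (fold 7.17). Its p-value from the peak caller was smaller in the PDS list, with 2.23e-09 in control and 7.82e-18 after PDS. ENSG00000291233 had 2 control and 3 PDS peaks, of which 1 of each overlapped. ENSG00000207751 had 3 control peaks and 1 PDS peak with folds between 4.10 and 13.6, none of which had a counterpart. The PDS peak, chr22:22005901-22006000, directly adjoined the control peak chr22:22005721-22005900 without overlapping it.

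Peaks at lncRNA starts were found in 1 list only less often than other control peaks. In control cells 164 of 1131 (14.5%, 12.6 to 16.7%) overlapped no PDS peak, against a background of 22% of all control peaks. The difference from the other control peaks was -7.74 percentage points (Newcombe interval -9.73 to -5.52). In PDS-treated cells 234 of 1205 (19.4%, 17.3 to 21.7%) overlapped no control peak, against a background of 21.4%, and the difference from the other PDS peaks, -2.01 points (-4.19 to 0.36), was within counting error. Compared with coding starts, the control share differed by -1.65 points (-3.91 to 0.78), whereas the PDS share was higher by 7.55 points (5.17 to 10.1) than the 11.9% at coding starts. The order of the lists turned when a gap of up to 1 kb was allowed, but not under the stricter definitions given below. With that gap, 10.2% of the control peaks and 7.22% of the PDS peaks were without a counterpart. The shares of the other peaks of each list were then 17.2% and 8.54%.

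Peaks without a counterpart were weak and narrow. In control cells they had a median width of 180 bp and a median fold percentile of 24.3, against 420 bp and 69.7 for the 967 shared peaks, and 91.5% (86.2 to 94.8%) of them fell among the 50% of control peaks with the larger p-values. In PDS-treated cells they had a median width of 100 bp, the narrowest in the list, and a median fold percentile of 20.1, against 450 bp and 61.1 for the 971 shared peaks. Of the 234 PDS peaks, 231 (98.7%, 96.3 to 99.6%) fell among the weaker 50% by p-value. Peaks of 1 list only at coding starts and elsewhere had like shares, 91.8% and 88.1% in control and 98.2% and 99% in PDS-treated cells. A shared peak of the same list lay within 1 kb of 129 of the 234 PDS peaks (55.1%, 48.7 to 61.4%) and of 34 of the 164 control peaks (20.7%, 15.2 to 27.6%). The consensus was present in 4 of the 234 (1.71%, 0.667 to 4.31%) and 10 of the 164 (6.10%, 3.35 to 10.9%), compared with 11.2% (9.39 to 13.4%) and 13.8% (11.7 to 16.1%) of the shared peaks. Of all peaks found in 1 list only, 2.38% (2.05 to 2.76%) in the PDS list and 10.3% (9.63 to 11.0%) in the control list held it, and the shares at lncRNA starts did not differ from these beyond counting error. A G4 motif overlapped 21 of the 234 (8.97%, 5.94 to 13.3%) and 27 of the 164 (16.5%, 11.6 to 22.9%), compared with 29.6% (26.8 to 32.5%) and 29.4% (26.6 to 32.3%) of the shared peaks, which are also wider. Among PDS peaks with a CpG-rich centre, 12.2% (9.27 to 16.0%) were found in 1 list only at lncRNA starts and 8.74% (7.70 to 9.91%) at coding starts, and among the others 22.6% (19.9 to 25.5%) and 17.8% (15.8 to 20.0%). For PDS peaks elsewhere these shares were 8.90% (7.80 to 10.1%) and 24.0% (23.5 to 24.5%). In the control list, the CpG-rich shares were 14.9% at lncRNA starts, 17.3% at coding starts and 9.72% elsewhere. Those of the other control peaks were 14.3%, 13.5% and 24.4%.

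The strongest peaks of 1 list only stayed below the top of their lists. In control cells they lay at ENSG00000290377 with a fold of 61.6 (rank 1969), at LINC01409 with 60.2 (rank 2134) and at ENSG00000287951, chr4:124271401-124271640, with 49.0 (rank 4109). The first 2 of them have near-identical copies elsewhere in the genome and are uncertain. In the PDS list they lay at ENSG00000287528, chr10:35929651-35929750, with a fold of 40.0 (rank 858), at CDRT15P3 with 27.9 (rank 3988) and at ANKRD20A5P with 25.3 (rank 5657). CDRT15P3 and ANKRD20A5P are pseudogenes annotated as lncRNA with 2 further copies each, and their peaks are uncertain.

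In base composition and G4 motifs, peaks at lncRNA starts stood between coding-start peaks and the rest. The median GC content of the central 200 bp was 58.5% (quartiles 50 and 66%) in control and 57.5% (50.5 and 65%) in PDS-treated cells, against 67% and 65% at coding starts and 50.5% and 52% elsewhere. A G4 motif overlapped 311 of the 1131 control peaks (27.5%, 25 to 30.2%) and 308 of the 1205 PDS peaks (25.6%, 23.2 to 28.1%). The difference from coding-start peaks was -10.4 points (-13.4 to -7.37) in control and -10.5 (-13.3 to -7.56) in PDS-treated cells, and from peaks elsewhere 15.1 points (12.6 to 17.8) and 11.4 (8.98 to 14). In the central 200 bp the share was 17.1% (15 to 19.4%) and 15.5% (13.6 to 17.7%), whereas 7.98% (7.57 to 8.41%) of all lncRNA starts more than 1 kb from a coding start had a motif in 200 bp. A CpG-rich centre, with GC content above 50% and a ratio of observed to expected CpG above 0.6, was found in 396 control peaks (35.0%, 32.3 to 37.8%) and 368 PDS peaks (30.5%, 28.0 to 33.2%), about 35.0 points fewer than at coding starts in both lists. Among CpG-rich control peaks the G4 share was 42.9% (38.1 to 47.8%) at lncRNA starts and 43.6% (41.7 to 45.4%) at coding starts, with overlapping intervals, whereas among the other control peaks it was 19.2% (16.5 to 22.2%) and 24.8% (22.5 to 27.3%), without overlap. The motifs lay on the strand of the lncRNA in 140 of 311 control peaks (45.0%, 39.6 to 50.6%), on the opposite strand in 128 (41.2%, 35.8 to 46.7%) and on both in 43 (13.8%).

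The CTCF consensus was found more often than at coding starts and about as often as in other peaks. The ChIP-exo consensus, searched on both strands of the central 200 bp, matched in 143 control peaks (12.6%, 10.8 to 14.7%) and 113 PDS peaks (9.38%, 7.86 to 11.2%). The difference from coding-start peaks was 7.47 points (5.51 to 9.63) and 4.62 points (2.94 to 6.51), and that from all other peaks was -0.84 points (-2.69 to 1.26) and -0.40 (-1.96 to 1.40). From peaks elsewhere it was -2.02 points (-3.88 to 0.08) and -1.09 (-2.65 to 0.72). With 1 mismatch allowed, the difference from peaks elsewhere was -3.66 points (-6.56 to -0.71) and -1.66 (-4.32 to 1.10). Of all lncRNA starts more than 1 kb from a coding start, 0.753% (0.63 to 0.90%) had a match in 200 bp. Within CpG-rich control peaks the share was 7.83% (5.57 to 10.9%) at lncRNA starts and 4.15% (3.47 to 4.95%) at coding starts, and outside them 15.2% (12.8 to 18.0%) and 7.58% (6.21 to 9.21%), so the difference was present in both kinds. The match pointed along the lncRNA in 70 control peaks and against it in 70, with both orientations in 3, and along it in 63 and against it in 49 of the 113 PDS peaks, with both in 1. Matches lay upstream of the start in 88 of 146 cases in control (60.3%, 52.2 to 67.8%) and 73 of 114 in PDS-treated cells (64.0%, 54.9 to 72.3%). Peaks with the consensus had a median fold percentile of 77.2 in control and 70.1 in PDS-treated cells, against 59.9 and 48.2 for those without. Neither the consensus nor a G4 motif was found in 715 control peaks (63.2%, 60.4 to 66.0%) and 820 PDS peaks (68.0%, 65.4 to 70.6%), and both in 38 and 36. A match is a run of letters and not evidence of a bound site.

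**Figure D3:**
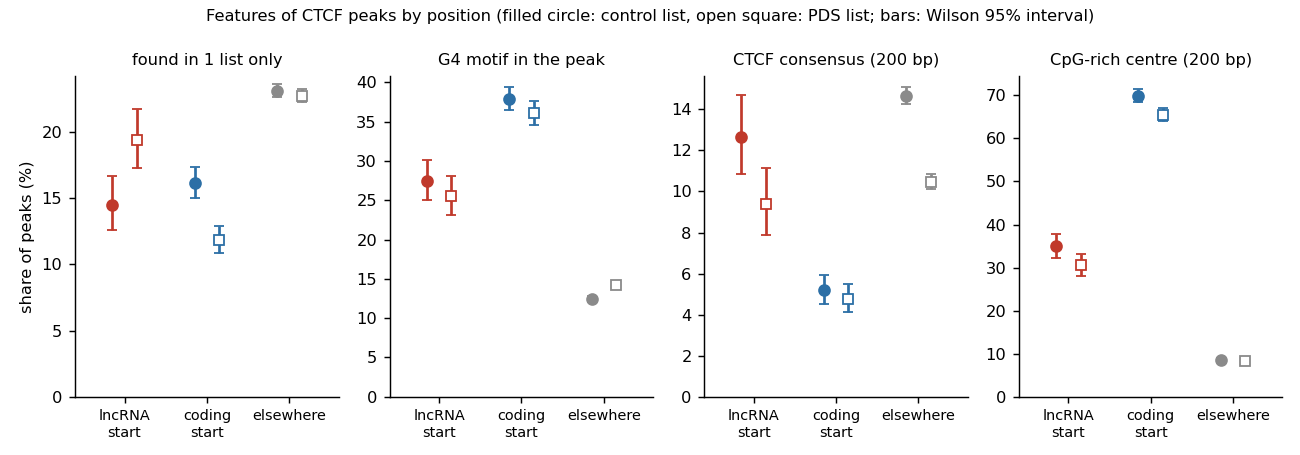
Share of CTCF peaks (%) found in 1 list only, overlapping a G4 motif, holding the CTCF consensus in the central 200 bp, or with a CpG-rich centre, for peaks at lncRNA starts (red), at protein-coding starts (blue) and elsewhere (grey). Filled circles are the control list, open squares the PDS list and bars Wilson 95% intervals; peaks at lncRNA starts lie between the other classes for G4 motifs (27.5 and 25.6%) and CpG-rich centres (35.0 and 30.5%).

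Across the lists, 901 peaks at lncRNA starts formed pairs in which each overlapped just the other. Their folds correlated across pairs with Spearman's rho of 0.44 and Pearson's r of 0.51, against 0.54 and 0.55 for the 3185 pairs at coding starts and 0.42 and 0.47 for the 20406 elsewhere. Peaks are not independent, and both lists derive from the same cell line. The median fold percentile of the pairs was 69.9 in control and 61.8 in PDS-treated cells, and the median shift was -2.32 percentile points (quartiles -25 and 13.2). It was lower after PDS in 506 of 901 pairs (56.2%), compared with 69.3% at coding starts and 45.0% elsewhere. The p-value percentile moved the other way, by a median of 3.39 points (-5.84 and 12.3), and was lower after PDS in 359 pairs. The median p-value shift was 4.05 points at coding starts, 1.97 elsewhere and 2.31 over all 24616 pairs, so this rise was not particular to lncRNA starts.

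The loss of rank by fold was concentrated in CpG-rich pairs. In the 323 pairs with a CpG-rich control peak the median fold percentile was 77.7 in control and 50.6 in PDS-treated cells, with a median shift of -12.8 points (-39.6 and 1.04), and 232 (71.8%, 66.7 to 76.5%) were lower after PDS. In the other 578 pairs the median shift was 1.29 points (-18.2 and 20.7), and 274 (47.4%, 43.4 to 51.5%) were lower. Pairs that were CpG-rich and overlapped a G4 motif shifted most, by a median of -24.2 points (-53.2 and -1.01) in 143 pairs, of which 109 (76.2%, 68.6 to 82.5%) were lower after PDS. CpG-rich pairs without a motif shifted by -7.79 points (-26.6 and 2.63) in 180 pairs, of which 123 (68.3%, 61.2 to 74.7%) were lower, so the intervals of these shares overlapped. Pairs with a G4 motif outside CpG-rich centres shifted by -2.22 points (-21.0 and 17.0) in 118 pairs, of which 64 (54.2%, 45.3 to 63.0%) were lower. CpG-rich pairs with a motif also lost rank at coding starts, with a median shift of -21.3 points and 80.2% (77.6 to 82.5%) lower, and elsewhere, with -17.3 points and 73.5% (70.3 to 76.4%) lower, so this was not particular to lncRNA starts.

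By p-value, the CpG-rich pairs with a G4 motif at lncRNA starts rose from a median percentile of 78.6 in control to 86.0 in PDS-treated cells, with a median shift of 5.67 points (-2.10 and 14.8). The shift of such pairs was 4.53 points at coding starts and 5.25 elsewhere, in the same direction. The direction for these pairs therefore depended on which of the authors' values ranked the peaks. By the labels, the IgG samples differ between the conditions in treatment and in number, and effects of the IgG, of the treatment and of the depth cannot be told apart from a single list per condition. CpG-rich pairs also began at a higher control percentile than the others (77.7 against 65.2), and the part of this starting rank in the shift was not tested.

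**Figure D4:**
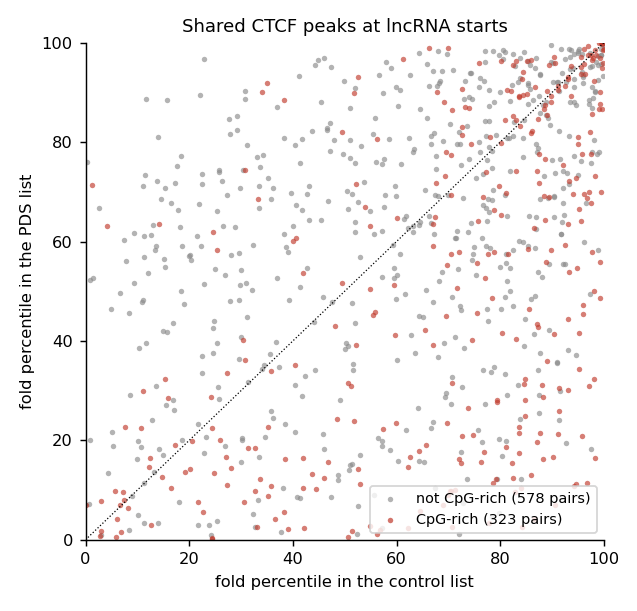
Fold percentile in the PDS list (vertical axis) against that in the control list (horizontal axis) for 901 pairs of peaks at lncRNA starts, with 323 pairs of CpG-rich control centre in red and 578 others in grey; the dotted line marks equal percentiles. Most CpG-rich pairs (232 of 323) lie below the line.

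**Figure D5:**
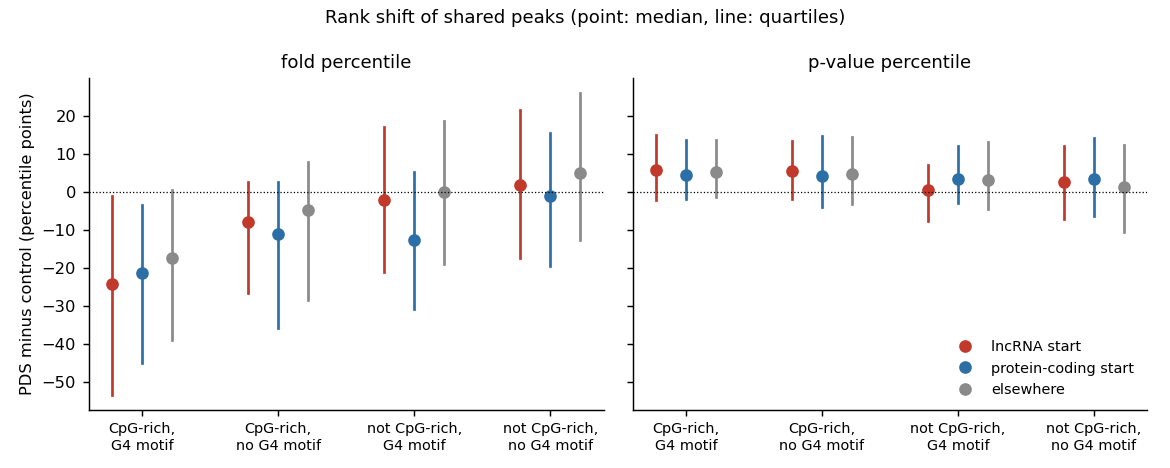
Difference of the within-list percentile (PDS minus control, percentile points) by fold (left) and by p-value (right) for pairs at lncRNA starts (red), coding starts (blue) and elsewhere (grey), split by CpG-rich control centre and G4 motif in the control peak; points are medians and lines run from the lower to the upper quartile. For CpG-rich pairs with a motif at lncRNA starts the median is -24.2 by fold and 5.67 by p-value.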

How the data were processed

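CTCF ChIP-seq peak lists of control and PDS-treated K562 cells were used. Per the paper's methods, the authors aligned reads to hg19 with Bowtie2 (2.2.3 in the submitters' processing notes), discarded PCR duplicates and poorly mapped reads, and called peaks with PePr. How PePr combined the replicates, and which IgG samples it used, is not given in the sources used here; the labels tie the CTCF and IgG samples of a condition to 1 list. The deposited fold of each peak is PePr's enrichment ratio, and the deposited p-value is that of PePr; the authors' score and adjusted p-value were not used. Positions are deposited in bp. Deposited p-values reached at most 1.00e-05, although a looser cutoff is stated in the methods, and positions are multiples of 60 bp in the control and 50 bp in the PDS list. The labels describe single-end and the methods paired-end reads. No column held values of other samples.

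Gene starts came from GENCODE 44 mapped to GRCh37 (18592 lncRNA and 20098 protein-coding genes). Sequences, with coordinates counted from 1, were read from the GRCh37 genome. A peak was named after the nearest lncRNA start and was shared if it overlapped a peak of the other list by at least 1 bp. Shares have Wilson intervals and differences of shares Newcombe intervals, at 95%. A window was called copied if minimap2 2.31-r1302 aligned its 200 bp elsewhere over at least 150 bp with at least 90% identity. Genes were named by rule: the 10 highest folds of each list, the 3 highest of 1 list only, the 5 starts with the most peaks, the peaks nearest to the 1 kb limit, and genes of 6 lists with a peak (values for at most 4 a list). Sequences were those of the 4 and 2 shared peaks of highest control fold with the consensus or a G4 motif, and of the strongest consensus-bearing peak of 1 list only in each list. Outside this rule, PPM1F-AS1, ENSG00000290026 and ENSG00000261842 were named for small p-values, HOXC-AS3 for its fold, H19 and GNAS-AS1 for their nearest peaks, ENSG00000267546 for its place beside SNHG16, and MIR17HG and MIR3142HG as further host genes, and the EPB41L4A-AS1 sequence was printed, all after their values were seen. Members, lists and rules were chosen with earlier results of these data known. The scripts were tested on simulated data. Python 3.11.15, numpy 2.4.6, pandas 2.3.3, scipy 1.17.1 and matplotlib 3.10.9 were used.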

Additional observations from a re-analysis of the deposited data

How the results depend on the processing

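No paired analysis was possible because the replicates of a condition share 1 peak list, which also kept single replicates from being left out. Values are given as control, then PDS. Of 122 values under alternative settings, 72 stayed within the counting interval of the value reported (for numbers of peaks, within 1.5 times) and 50 moved. The annotation held 0 lncRNA genes of level 3, so leaving these out changed nothing. The values of that setting are equal to those reported by construction and are counted among the 72. It is also among the settings counted below.

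With a window of 500 bp there were 714 and 753 peaks at 4.002% and 4.05% of starts, fold percentiles of 67.2 and 55.5, a GC content of 59.5% in control, and 16.9% of PDS peaks in 1 list only. Of the other PDS peaks, 21.5% were then in 1 list only. With 2 kb there were 1794 and 1943 peaks at 9.36% and 9.15% of starts, a control fold percentile of 58.8, a GC content of 56.5% and 56%, a control G4 share of 24.3%, and 50.2% of control peaks upstream. With coding starts more than 5 kb away, peaks lay at 4.91% and 4.76% of starts, with a control GC content of 57%. With the 50% of peaks of smallest p, there were 679 and 693 peaks at 3.8% and 3.85% of starts, 10.2% and 12.7% in 1 list only, 35.9% and 35.6% with a G4 motif, 15.3% and 12% with the consensus, and a GC content of 59.5% and 59%. Of the other peaks under this setting, 17.4% and 16.7% were in 1 list only.

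Peaks of 1 list only came to 24.0% and 28.1% with 50% of both peaks overlapping, 32.2% and 36.5% with centres within 100 bp, and 10.2% and 7.22% with a gap of up to 1 kb. For the other peaks of each list these shares were, in the same order, 35.2% and 34.7%, 40.7% and 40.2%, and 17.2% and 8.54%. The G4 share was 41.4% and 40.4% with loops up to 12 nt, 17.1% and 15.5% in 200 bp, and 43.6% and 42.0% in 1000 bp. The consensus share was 41.4% and 32.9% with 1 mismatch, and 17.0% and 14.4% in the whole peak. The PDS percentile by p-value was 59.0, and the control GC content of whole peaks 57.2%.

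Against the rest of the list, the GC content and the G4 share were higher, and the control share in 1 list only lower, under every setting tried. The consensus share was lower under all 8 settings in control, and lower under 5 and higher under 3 in the PDS list. The PDS fold percentile was above the rest under 6 settings and below it under 2 (48.3 against 50.1 with 2 kb, 49.5 against 50.1 for the smallest p), and the PDS share in 1 list only was lower under 9 and higher under 1 (21.7% against 21.3% with 2 kb). Leaving out peaks with a copy elsewhere, chosen after seeing the data, left 1122 and 1195 peaks and 14.3% and 19.2% in 1 list only. The shares for the rest of the list were 22.2% and 21.4%. The causes were not tested. Depth per sample is unknown.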
